A study of Mus musculus with 29 samples.

Results

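The 4 cytosol libraries of a puromycin experiment in C2C12 cells were examined, out of 29 samples in the series. C2C12 is a mouse myoblast line, a model of muscle precursors that grow in serum and fuse into myotubes when serum is withdrawn; all 4 libraries come from proliferating cells. The members were chosen by their labels: cytosol fraction, puromycin at 100 µg/ml for 0, 30 or 60 min, or no treatment. Each condition is 1 library, so the exposures are not replicates of each other and the untreated and 0 min libraries served as the only pair of unexposed libraries. Nothing in the labels says that the libraries come from different cultures; any p-value here is therefore set against library spread that could be technical. The assay was 3'READS+, which sequences the ends of polyadenylated RNA and counts reads at each poly(A) site; reads of all sites of a gene were summed. Between 5506600 reads in genes (untreated) and 10076875 (30 min) were deposited per library, with 7254243 at 0 min and 7226533 at 60 min. Levels are given in CPM, reads scaled to a common library size with TMM factors; levels summed over a list of genes are scaled by library size alone.

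Puromycin resembles the end of a charged tRNA. The ribosome joins it to the growing peptide, which is then released early, and the ribosome comes off the mRNA. Most mRNAs for secreted and membrane proteins reach the endoplasmic reticulum (ER) while being translated, through a signal sequence in the nascent peptide, and much of their attachment to the ER depends on the ribosome and that peptide. The cytosol fraction holds the RNA that is not attached to membranes.

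The labelled fraction matched its markers in the unexposed libraries. The 1672 genes with at least 2 log2 units more RNA in the membrane than in the cytosol in separate unexposed whole-fraction libraries (1 library each) made up 3.61% of cytosol reads in the untreated library and 3.04% at 0 min, against 30.7% and 31.0% of reads in the membrane libraries of the same experiment. Of 10 myoblast markers, 8 were abundant enough to test. At each time 3 of them rose, where 13.2% of all genes rose at 30 min and 13.5% at 60 min. The summed level of the markers was 275, 266, 852 and 758 CPM in the untreated, 0, 30 and 60 min libraries. Differentiated muscle markers summed to 233, 205, 148 and 178 CPM in the same order, near the myoblast sum in the unexposed libraries. The proliferating state is therefore taken from the labels. Macrophage markers summed to between 0.69 and 1.29 CPM and endothelial markers to between 0 and 0.55 CPM. Across 5757 genes with a mean of at least 10 CPM, log2 CPM correlated at Pearson r = 0.969 between the untreated and 0 min libraries and at 0.988 between 30 and 60 min, but only at 0.833 to 0.839 between an unexposed and an exposed library; genes are not independent replicates.

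Puromycin changed the cytosolic RNA mostly in one direction, and nearly as far at 30 min as at 60 min. A gene was counted as past 2-fold when its log2 CPM (prior count 2) lay at least 1 above the higher, or below the lower, of both unexposed libraries. Of 10188 genes tested, 1474 (14.5%) were higher at 30 min and 196 (1.92%) lower, and at 60 min 1579 (15.5%) were higher and 238 (2.34%) lower. At both times 1321 (13%) were higher and 71 (0.697%) lower. Between the unexposed libraries themselves 544 genes (5.34%) were at least 2-fold higher and 588 (5.77%) at least 2-fold lower at 0 min than untreated. That comparison is of 1 library with 1, a looser rule than the one above. Against the 0 min library alone, 411 genes were lower and 1897 higher at 30 min, and 513 lower and 2040 higher at 60 min. Against the untreated library alone, 639 were lower and 1898 higher at 30 min, and 709 lower and 2050 higher at 60 min. Values in bulk RNA are shares of a library: fewer cells of a type and less RNA per cell cannot be told apart.

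edgeR's quasi-likelihood test compared each exposed library with the unexposed pair. It had 1 residual degree of freedom per gene and assumed that the single exposed library varied like the pair. The median prior degrees of freedom were infinite, so a typical gene took its spread from the trend over all genes. Its SE and p-value therefore hardly reflect the gap within its own unexposed pair. At a Benjamini-Hochberg adjusted p under 0.05, 1344 genes (13.2%) rose and 97 (0.952%) fell at 30 min, and 1375 (13.5%) rose and 133 (1.31%) fell at 60 min. At both times 1210 genes (11.9%) rose, which is 90.0% of those that rose at 30 min and 88% of those at 60 min; 49 (0.481%) fell at both. The fitted biological coefficient of variation was 0.229. With the whole-fraction cytosol library added to the unexposed pair, 749 and 759 genes rose and 4 and 3 fell at 30 and 60 min, so the rises were fewer and nearly all falls were lost. A fit linear in minutes called 0 genes (2 residual degrees of freedom).

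Genes of secreted proteins were among those with the largest rises. Spp1, the matrix protein osteopontin, stood at 109 CPM untreated and 84.0 CPM at 0 min, and at 2824 and 2332 CPM at 30 and 60 min. Its log2 change was 4.87 ± 0.37 (SE) at 30 min and 4.60 ± 0.36 at 60 min (adjusted p 6.64e-36 and 2.50e-32). Both exposed libraries were far above both unexposed ones. Sparc, a collagen-binding matrix protein, went from 41.6 and 35.0 CPM to 751 and 683 CPM (log2 change 4.29 and 4.16). Fbln1, fibulin-1 of the matrix, went from 57.0 and 70.2 CPM to 1477 and 1236 CPM, and Ecm1, a secreted matrix glycoprotein, from 74.4 and 68.2 CPM to 1479 and 1366 CPM. No unexposed library overlapped an exposed one for these genes, as follows from naming them for large changes. Of 33 tested genes of extracellular matrix and secreted proteins, 28 rose at 30 min and 26 at 60 min, with none lower. Over all genes tested, 13.2% rose at 30 min and 13.5% at 60 min. The median log2 change of the list was 2.30 and 2.32, against -0.06 and -0.05 over all genes tested.

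ER-resident folding enzymes rose as a group. All 23 tested ER chaperones and folding enzymes rose at 30 min and 22 at 60 min, with median log2 changes of 2.97 and 3.06. Among all genes tested, 13.2% rose at 30 min and 13.5% at 60 min. Calr, a calcium-binding lectin chaperone, stood at 91.7 and 113 CPM in the untreated and 0 min libraries and at 1680 and 1146 CPM at 30 and 60 min. Pdia6, a disulfide isomerase, went from 14.0 and 10.8 CPM to 259 and 224 CPM (log2 change 4.39 ± 0.36 at 30 min). For Calr the 60 min level was below that at 30 min by 0.55 on the log2 scale, a difference that did not pass the test. Summed over the list, these genes stood at 610 and 587 CPM unexposed and at 6084 and 5771 CPM at 30 and 60 min. Components of ER translocation and glycosylation followed: 19 of 23 rose at 30 min and 18 at 60 min. Ssr2, a subunit of the translocon-associated complex, went from 112 and 78.7 CPM to 1391 and 1269 CPM.

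Lysosomal and plasma membrane proteins moved alike. Of 21 lysosomal genes, 20 rose at each time, where 13.2% of all genes rose at 30 min and 13.5% at 60 min. The median log2 changes of the list were 3.45 and 3.51. Ctsb, the protease cathepsin B, stood at 218 and 187 CPM unexposed and 3789 and 3504 CPM exposed. Npc2, a cholesterol-binding lysosomal protein, shows the spread in the pair: it stood at 488 CPM untreated, 1427 CPM at 0 min, 3033 CPM at 30 min and 3169 CPM at 60 min, so its log2 change of 1.66 ± 0.35 at 30 min came with a wide gap inside the unexposed pair. Of 39 plasma membrane genes 34 rose at 30 min and 31 at 60 min. Cd63, a tetraspanin, reached 12086 and 11382 CPM from 1157 and 830 CPM. Chrna1, the acetylcholine receptor alpha subunit and a muscle gene, went from 5.07 and 5.84 CPM to 101 and 98.6 CPM. Sterol synthesis genes and their regulators rose in 13 of 21 cases at each time.

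**Figure D1:**
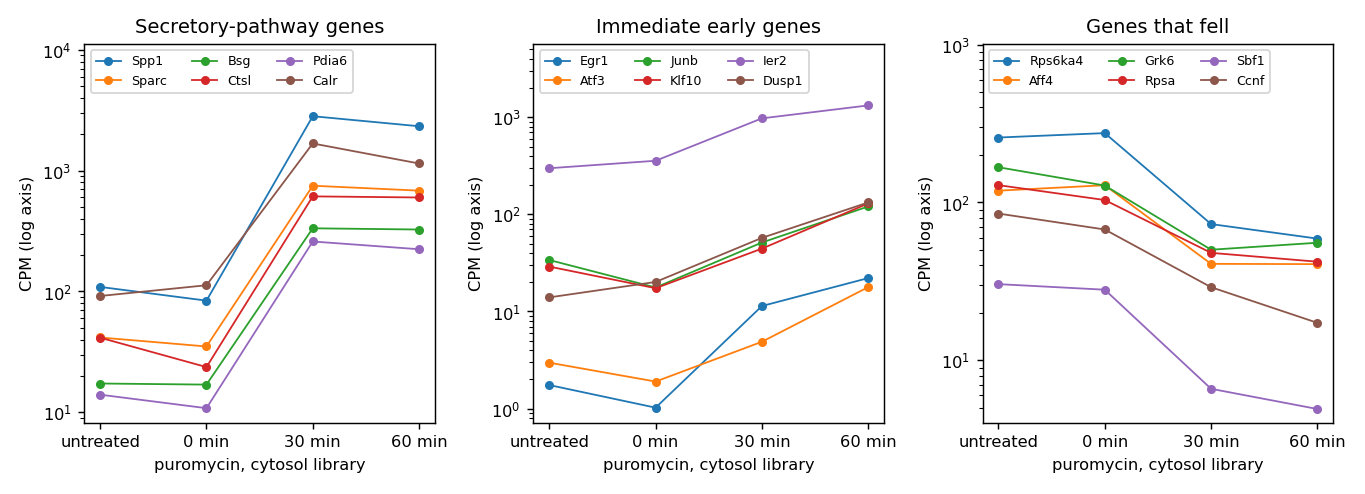
Level in CPM (log axis) of named genes in the 4 cytosol libraries, 1 library per point, joined by lines to guide the eye. Genes of secreted, membrane and ER proteins are already high at 30 min, the immediate early genes are highest at 60 min, and the genes that fell are low in both exposed libraries.

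The rise followed the membrane to cytosol ratio of each gene, measured in the separate whole-fraction libraries (1 library each). Among 358 genes with a log2 ratio above 4, 86.3% rose at both times, and the median log2 change was 3.06 at 30 min and 2.96 at 60 min. With a ratio of 3 to 4 the share was 74.0%, with 2 to 3 it was 44.6%, with 1 to 2 it was 7.78%, and below -1 it was 0% of 1153 genes. The background was 11.9%. Across the 5757 genes of at least 10 CPM, the ratio and the mean cytosol change correlated at Pearson r = 0.854 and Spearman rho = 0.648, a description across genes of libraries made from the same fractions. The ratio from the 8 gradient libraries gave r = 0.812. Of the 1210 genes that rose at both times, 1079 had a ratio of at least 2 and 3 were below 0. The share of cytosol reads from genes with a ratio of at least 2 was 16.6% at 30 min and 16.6% at 60 min, against 3.61% and 3.04% unexposed, while in the membrane libraries it stood at 30.7% and 31.0% unexposed and 20.4% and 19.5% exposed.

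**Figure D2:**
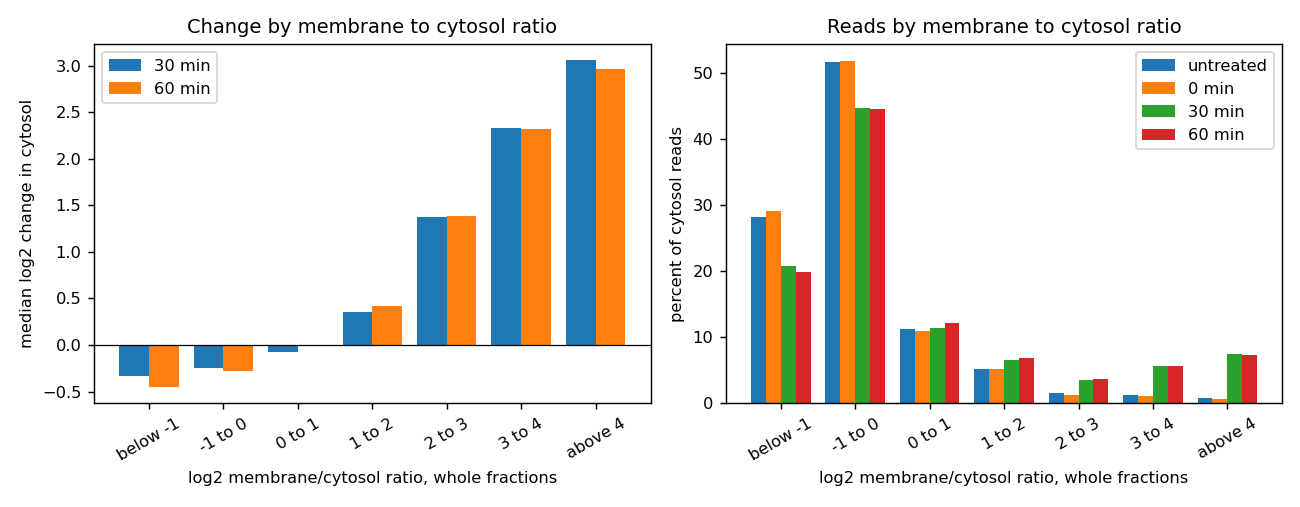
Left, median log2 change in the cytosol at 30 and 60 min for genes grouped by their log2 membrane to cytosol ratio in the whole-fraction libraries; right, percent of cytosol reads in each class per library. The median runs from -0.33 at 30 min below a ratio of -1 to 3.06 above 4, and the classes above 2 take 16.6% of reads in each exposed library.

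Cytosol changes were compared with those of the membrane libraries, with the unexposed pair of each fraction. The difference between fractions passed for 1052 genes higher (9.64% of 10914) and 34 lower (0.312%) at 30 min, and for 1086 higher (9.95%) and 24 lower (0.22%) at 60 min. With each cytosol library matched to the membrane library of its condition in the fit, chosen after seeing the data, the counts were 1763 higher and 873 lower at 30 min and 1787 higher and 831 lower at 60 min; the labels do not say that both fractions came from the same cells. In the membrane libraries alone, 0 genes passed in edgeR at 30 min (969 at an unadjusted p under 0.05), and 14 rose and 1 fell at 60 min. For Spp1 the cytosol change at 60 min exceeded that of the membrane by 6.18 log2 units (adjusted p 6.88e-04), and for Sparc by 5.49 (adjusted p 6.88e-04).

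Not every gene with a high membrane ratio moved. Among genes with a ratio of at least 3 and not past the 2-fold rule as higher, Col5a1, a fibrillar collagen chain (ratio 4.59), stood at 38.6, 24.4, 24.6 and 20.8 CPM. Hspg2, the basement membrane protein perlecan (ratio 4.38), stood at 127, 69.8, 85.5 and 78.4 CPM, and neither passed the test. Zfand3, a zinc finger protein, stood at 80.9, 99.0, 57.8 and 60.5 CPM with a ratio of 3.68. These genes were chosen after their values were seen, from those with the lowest change summed over both times. Among lists of proteins that mostly lack a signal peptide, 0 of 27 tail-anchored and SNARE proteins, 0 of 25 proteasome subunits, 0 of 21 cytosolic heat shock proteins and 0 of 19 mitochondrial ribosomal proteins passed at either time, where 13.2% of all genes rose at 30 min. Other such lists had calls: of 31 translation factors 2 rose and 1 fell at 30 min, and of 26 respiratory chain subunits 1 rose and 2 fell. Over all genes tested, 0.952% fell at 30 min.

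Immediate early genes, which cells transcribe within minutes of a stimulus, were higher at 60 min than at 30 min. Of 27 tested transcription factors of this kind, 6 rose at 30 min and 18 at 60 min, with none lower; their summed level was 1294 and 1275 CPM in the unexposed libraries, 2324 CPM at 30 min and 4157 CPM at 60 min. Of 22 feedback and signalling genes, 6 rose at 30 min and 14 at 60 min. Over all genes tested, 13.2% rose at 30 min and 13.5% at 60 min. Egr1, a zinc finger transcription factor, stood at 1.75 and 1.02 CPM unexposed and at 11.4 and 22.1 CPM exposed (log2 change 3.05 ± 0.52 at 30 min). Klf10, a Krüppel-like factor, went from 29.0 and 17.4 CPM to 44.4 and 130 CPM; its change at 30 min was 0.94 ± 0.36 (adjusted p 0.0597), and at 60 min 2.49 ± 0.35 (adjusted p 5.04e-11). Ier2, an immediate early nuclear protein, stood at 299, 357, 975.5 and 1326 CPM. The 60 min library was the highest of the 4 for each of these genes.

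Among feedback genes, Dusp1, a phosphatase that switches off MAP kinases, stood at 14.0, 20.1, 57.3 and 133 CPM in the untreated, 0, 30 and 60 min libraries (log2 change 2.95 ± 0.35 at 60 min). Ier3 stood at 159, 254, 1120 and 1972 CPM. Of 15 secreted proteins in this group, 9 rose at 30 min and 10 at 60 min, where 13.2% and 13.5% of all genes rose. Gdf15, a stress-induced cytokine, stood at 10.1, 7.74, 81.7 and 192 CPM, and Ccl2, a chemokine, at 19.4, 10.1, 131 and 325 CPM. Their membrane ratios were 2.98 and 3.15, in classes where 44.6% and 74.0% of all genes rose at both times. The median ratio of the secreted list was 2.16, and its median change in the membrane libraries was -0.39 at 30 min and 0.52 at 60 min. The 60 min value was above the 30 min value in 26 of 27 transcription factors, 22 of 22 feedback genes and 14 of 15 secreted proteins, against 4614 of 10188 genes tested; in the test of 60 against 30 min no gene of these lists passed. In the membrane libraries the median change of the transcription factors was 0.98 at 30 min and 1.77 at 60 min, and at 60 min 4 of the transcription factors, 2 of the feedback genes and 0 of the secreted proteins passed there; the part of a change in both fractions in the cytosol values was not tested. With the whole-fraction cytosol library added to the unexposed pair, 2 and 6 transcription factors, 1 and 5 feedback genes and 2 and 3 secreted proteins rose at 30 and 60 min.

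The 60 min library differed from the 30 min library in 1 gene by edgeR (0.00982% of genes; 110 at an unadjusted p under 0.05), and none was lower. It was Hist3h2a, a histone with polyadenylated ends, at 23.6, 17.7, 28.9 and 136 CPM; the log2 difference of 2.24 had an adjusted p of 0.00297. It did not pass under DESeq2 or under another scaling. Hist1h1c, a linker histone, stood at 19.4, 15.6, 23.6 and 76.0 CPM and did not pass.

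**Figure D3:**
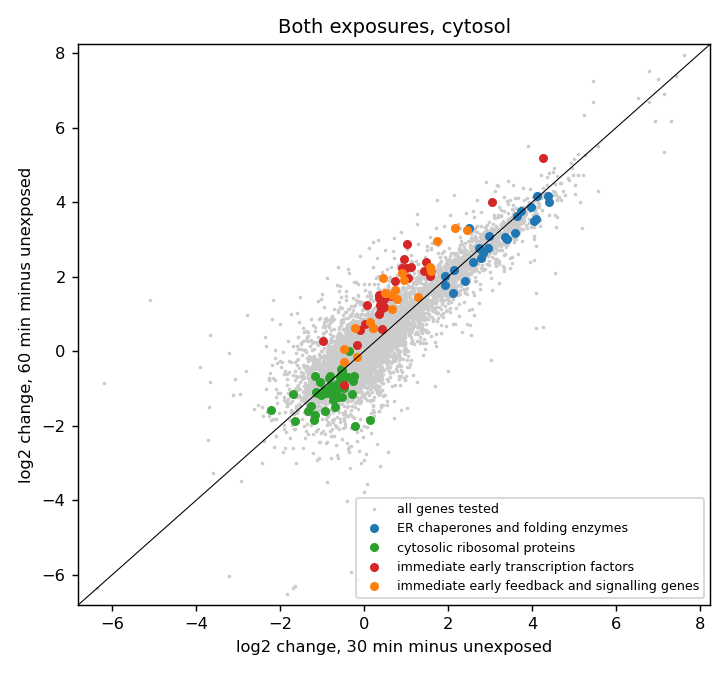
Log2 change at 60 min against that at 30 min for all genes tested (grey) and 4 groups; the line marks equal change. ER chaperones lie along the line, ribosomal proteins below 0 on both axes in most cases, and 26 of 27 immediate early transcription factors lie above it.

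Some genes were past 2-fold at 1 exposure only: 153 higher and 124 lower at 30 min alone, and 257 higher and 167 lower at 60 min alone. Furin, a protease of the secretory pathway, stood at 8.56, 4.67, 21.8 and 11.6 CPM in the untreated, 0, 30 and 60 min libraries and rose at 30 min (adjusted p 7.89e-04), while at 60 min its log2 change was 0.82 ± 0.45 (adjusted p 0.266). Lmnb1, the nuclear lamina protein lamin B1, stood at 109, 65.8, 56.8 and 30.6 CPM and fell at 60 min by 1.52 on the log2 scale (adjusted p 9.03e-04). Neither gene passed in the test of 60 against 30 min.

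Stress lists had calls in a few members. Of 18 tested targets of the integrated stress response, 3 rose at 30 min and 4 at 60 min, where 13.2% and 13.5% of all genes rose. Atf4, the transcription factor of that response, stood at 1042, 574, 673 and 894 CPM and did not pass, with the exposed values inside the range of the unexposed pair. Herpud1, an ER membrane protein of protein degradation, rose from 3.32 and 2.48 CPM to 12.3 and 10.1 CPM, and its membrane ratio was 2.49. Of 17 p53 targets, 1 rose and 2 fell at 30 min, and 3 rose and 1 fell at 60 min. Over all genes tested, 0.952% fell at 30 min and 1.31% at 60 min. Tnfrsf10b, a death receptor of the plasma membrane, rose from 3.49 and 1.02 CPM to 20.3 and 16.0 CPM, and its membrane ratio was 4.83. Cdkn1a, a cell cycle inhibitor, stood at 243, 154, 136 and 117 CPM and did not pass. Of 11 tubulin genes 1 fell at each time: Tuba4a went from 296 and 218 CPM to 125 and 121 CPM. Of 29 cell cycle genes 1 rose at each time and none fell.

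Promoter windows from RefSeq (GRCm38.p6) were searched for 3 elements known to drive immediate early genes. Not all of these genes moved. At 60 min 18 of 27 tested transcription factors and 14 of 22 feedback genes rose, where 13.5% of all genes rose. The windows cover 250 bases before each start; the cAMP response element is TGACGTCA, the AP-1 site is TGACTCA, and the CArG box, bound by serum response factor, was searched by its name, each on both strands. The element TGACGTCA was in 508 of 32851 windows (1.55%), in 4 of 33 windows of feedback and signalling genes and in 1 of 31 of the transcription factors. The 4 feedback genes that hold it rose at 60 min, as did 14 of 22 tested genes of that list; the transcription factor gene, Maff, did not pass (log2 change 0.60 at 60 min, adjusted p 0.401). The AP-1 site was in 4.46% of all windows, in 1 of 33 and in 1 of 31. Those matches, not printed here, were in Tnfaip3, which was not tested, and Csrnp1. Csrnp1 rose by 2.27 on the log2 scale at 60 min (adjusted p 1.40e-07 in edgeR). The TGACGTCA matches are printed 5′ to 3′ along the gene, 30 bases each with the element in capitals.
Dusp1 (chr17:26508597-26508626, minus strand): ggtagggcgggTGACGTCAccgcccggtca
Btg2 (chr1:134079303-134079332, minus strand): gttcccaataaTGACGTCAgtgagcgatga
Errfi1 (chr4:150855008-150855037, plus strand): gctgcgggcgtTGACGTCAcgttgtcgctc
Plk2 (chr13:110394971-110395000, plus strand): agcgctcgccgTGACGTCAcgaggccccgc
Maff (chr15:79347480-79347509, plus strand): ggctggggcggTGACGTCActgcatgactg
The CArG box was in 482 windows (1.47%) and in 5 of 31 of the transcription factors, 4 of which belong to Egr2 and 1 to Srf, and in 2 of 33 of the feedback genes, Dusp5 and Zfp36. Egr2 windows with starts 62, 63 and 123 bases after the box hold the same element, at chr10:67537787-67537816. The windows are therefore not all separate elements. Egr2 (log2 change 1.43 at 60 min, adjusted p 0.495), Srf (-0.92, adjusted p 0.160) and Dusp5 (0.071, adjusted p 0.965) did not pass. A match is a description of the letters and not evidence of binding. Zfp36, a decay factor for short-lived mRNAs, was the holder of a CArG box that rose, by 2.25 on the log2 scale at 60 min. Its CArG match is the only one printed, chosen after its value was seen.
Zfp36 (chr7:28379267-28379296, minus strand): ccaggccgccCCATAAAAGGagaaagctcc

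Ribosomal protein mRNAs were lower as a list, and a minority of them passed the test. Of 51 tested, 5 fell at 30 min and 16 at 60 min, and none rose, where 0.952% and 1.31% of all genes fell, with median log2 changes of -0.74 and -1.03; their summed level was 106693 and 109603 CPM unexposed and 61825 and 56095 CPM exposed. Rps20 stood at 12071 and 14564 CPM unexposed and 6100 and 6102 CPM exposed (log2 change -1.13 at each time, adjusted p 0.0249 and 0.0244). Rpsa, which also has a role as a laminin receptor, went from 129 and 104 CPM to 48.0 and 42.2 CPM. Many ribosomal protein genes have near-identical processed copies, so how reads were assigned is uncertain. These calls depended on the settings. With the whole-fraction cytosol library added, 0 fell at either time. With the spread of all 8 puromycin libraries, 2 of 55 fell at each time. Without 1 unexposed library the spread came from the unexposed membrane pair, so those fits do not show which library the calls rest on. At 60 min 5 fell under library size alone or the DESeq2 test and 10 under DESeq2 size factors. The membrane libraries showed a median log2 change of 0.45 and 0.30 for this list at 30 and 60 min.

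The 49 genes that fell at both times had a median membrane ratio of -0.07. Sbf1, a phosphatase-related adaptor, stood at 30.4 and 28.0 CPM unexposed and 6.61 and 4.92 CPM exposed (log2 change -2.14 ± 0.47 and -2.56 ± 0.49). Rps6ka4, a stress-activated kinase, went from 258 and 275 CPM to 73.0 and 59.1 CPM, Aff4, a scaffold of the elongation complex, from 119 and 129 CPM to 40.9 and 40.7 CPM, and Grk6, a receptor kinase, from 167 and 128 CPM to 50.2 and 55.6 CPM. Ccnf, a cyclin that acts in ubiquitin ligases, fell from 85.1 and 67.5 CPM to 29.1 and 17.3 CPM. These genes were chosen as past 2-fold lower at both times, so no exposed library could reach the unexposed pair. The falls in edgeR depended on the libraries in the fit. With the whole-fraction cytosol library added to the unexposed pair, 4 and 3 genes fell at 30 and 60 min. With the spread of all 8 puromycin libraries, 30 and 32 fell.

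Site use was compared for 4450 genes with 2 abundant poly(A) sites, at most 10 kb apart (median 657 nt), as the share of reads at the distal site; the distal site gives the longer 3′ UTR where both sites lie in the last exon. The median distal share was 60.7% untreated, 59.0% at 0 min, 56.9% at 30 min and 57.2% at 60 min. Of 4420 pairs with reads in all 4 libraries, 108 (2.44%) were more distal by at least 10 points at both exposures than the higher unexposed share, and 164 (3.71%) less distal. With a mean of at least 50 reads, 21 of 2782 pairs (0.755%) were more and 38 (1.37%) less distal. The unexposed pair itself differed by at least 10 points in 712 pairs one way and 922 the other. In edgeR 0 pairs passed at 30 or 60 min (221 and 202 at an unadjusted p under 0.05). In simulated data with the spread seen between the unexposed libraries, this fit recovered 0 of 200 pairs whose distal odds changed 4-fold, so the count of 0 carries no information about whether site use changed. The shares below are therefore given with Wilson 95% intervals, which cover counting error only.

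Pairs were named by the size of their change among those past 10 points with a mean of at least 50 reads. Prnp, the prion protein, has sites at chr2:131757045 and chr2:131764165 (mm9, plus strand). Its distal share was 40% (23.4 to 59.3, 25 reads) untreated, 33.3% (19.8 to 50.4, 33 reads) at 0 min, 89.4% (84.1 to 93.1, 180 reads) at 30 min and 91.2% (84.5 to 95.1, 113 reads) at 60 min. The exposed intervals lie above the unexposed ones, for a pair named for the size of its change. The share was 90.9% in the whole-fraction membrane library and 54.3% (38.2 to 69.5, 35 reads) in the cytosol one. Slc35b2, a Golgi sulfate-donor transporter (sites at chr17:45703004 and chr17:45704618, mm9, plus strand), had a distal share of 41.7% (302 reads) and 38.7% (181 reads) unexposed and 76.1% (1220 reads) and 78.3% (928 reads) exposed, against 68.9% in the whole-fraction membrane library and 30.1% in the cytosol one. Among pairs that became less distal, Tm4sf1, a membrane protein of the tetraspanin-like family, went from 61.4% (83 reads) and 44.7% (47 reads) to 25.3% (845 reads) and 22.5% (677 reads), but stood at 33.0% (24.6 to 42.7, 100 reads) in the whole-fraction cytosol library. Mogs, a glucosidase of the ER, went from 40.9% (22 reads) and 52.2% (23 reads) to 14.8% (331 reads) and 18.5% (265 reads), with 32.4% (37 reads) in the whole-fraction cytosol library. Klhl7, a ubiquitin ligase adaptor, went from 45.5% (55 reads) and 30.6% (36 reads) to 4.83% (145 reads) and 8.33% (84 reads), but stood at 10.0% in the whole-fraction cytosol library. None of these pairs passed the test.

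**Figure D4:**
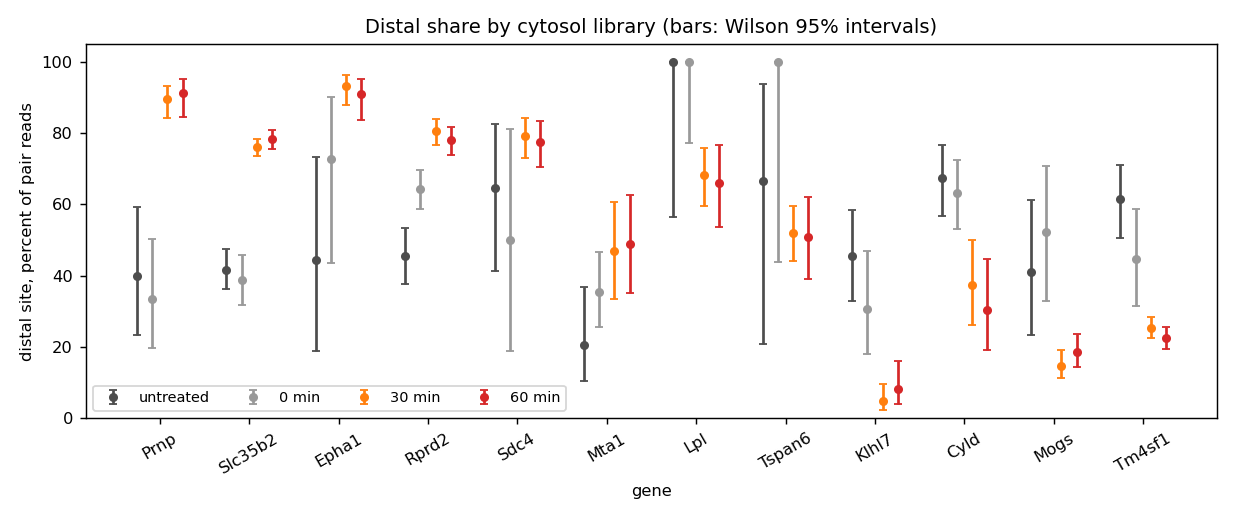
Distal share (percent of the reads of a pair, by library) of the 12 named site pairs, with Wilson 95% intervals as bars. Intervals are wide in the unexposed libraries where a gene is low there, as for Lpl and Tspan6, and narrow in the exposed ones.

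Pairs of genes with a membrane ratio above 2 passed the 10-point rule more often (10.3% of 737) than those with a ratio of 0 to 2 (6.29%) or below 0 (4.74%), against 6.15% over all pairs; the difference was not tested, and the unexposed libraries hold fewer reads of the first class.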

How the data were processed

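Poly(A) site counts per library were deposited by the authors as raw read counts per site, per the file headers; mm9 is the build, and the submitters' processing notes name cutadapt, Bowtie2 and STAR 2.5.2 without roles. The adapters carry random bases, and whether reads were collapsed is not given in the sources used here. The deposited counts of 125369 site entries were summed per gene symbol (17005 symbols); 651 positions listed under several symbols (0.56% of reads) were left out. Genes were filtered with filterByExpr in edgeR 4.0.16 (R 4.3.3), scaled by TMM and tested by its quasi-likelihood fit (Benjamini-Hochberg). DESeq2 1.42.0 was an alternative. The gene fit was tested on simulated data for 30 min against unexposed (9536 genes): it recovered 8 of 40 genes at 2-fold, 32 of 40 at 4-fold and 40 of 40 at 8-fold, 2 of 40 lowered to 0.5 and 25 of 40 lowered to 0.25 of their level, with 5 false calls. The site-pair fit recovered 0 of 200 pairs (4450 pairs). After that result 7 other settings of the pair fit (edgeR's legacy form, no robust spread, 8 libraries) were tried on simulated pairs; they recovered 0 to 11 of 200, the setting that recovered 11 made 5 false calls, and the planned setting was kept.

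The members and gene lists were chosen with earlier results of these data known. Named genes are, per list, the 3 most abundant and the 3 with the largest mean change, the 12 largest rises and falls past 2-fold at both times, 6 each for one time only, and 6 site pairs in each direction among those with a mean of at least 50 reads; genes named outside the lists had a mean of at least 10 CPM. Genes holding a promoter match and genes with a high membrane ratio that did not move were named after their values were seen.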

Additional observations from a re-analysis of the deposited data

Results flagged for a closer look

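The change with puromycin differed between cytosol and membrane, by the interaction term in edgeR, for 1086 genes at 30 min and for 1110 genes at 60 min. Both comparisons rest on single exposed libraries in each fraction. With each cytosol library matched to the membrane library of its condition, 1763 genes were higher and 873 lower at 30 min, and 1787 higher and 831 lower at 60 min.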

How the results depend on the processing

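The rises kept their direction and stayed within 1.5 times their count under DESeq2 size factors, library size alone, no filter on low counts, positions of several symbols kept and the spread of all 8 puromycin libraries. The falls past 2-fold did so under the first 4 of these, and the falls in edgeR without the filter or with those positions kept. With a prior count of 10, lower genes past 2-fold numbered 57 at 30 min, 90 at 60 min and 30 at both, and the unexposed pair gave 214 higher and 234 lower; without the filter that pair gave 1015 and 944. With the whole-fraction cytosol library added, lower genes past 2-fold numbered 127, 146 and 39 at 30 min, 60 min and both, and edgeR called 749 and 759 genes higher and 4 and 3 lower. Without 1 unexposed library, lower genes past 2-fold ranged from 411 to 639 at 30 min, from 513 to 709 at 60 min and from 181 to 340 at both, and edgeR's lower genes from 15 to 45 at 30 min and from 14 to 50 at 60 min, in each case the fewest without the untreated library. The lower genes in edgeR at 30 and 60 min numbered 43 and 60 under DESeq2 size factors, 43 and 34 under library size alone, and 30 and 32 with the spread of 8 libraries. The DESeq2 Wald test called 808 and 830 higher and 21 and 19 lower. The fit linear in minutes called 0 higher and 0 lower. The cause was not tested for any of these. The 1 gene of 60 against 30 min fell to 0 under DESeq2 size factors, library size alone, the third unexposed library, 8 libraries, the DESeq2 Wald test and without either unexposed library. The lower genes of the comparison between fractions numbered 91 at 30 min and 118 at 60 min without the filter (chosen after seeing the data), and 39 at 60 min under library size alone. Eif5a at 30 min changed sign, from -1.21 to 0.043, without the untreated library, and was -1.83 without the 0 min library.

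The median change of distal share was -1.07 points at 30 min and -0.87 at 60 min, -1.86 and -1.58 with the rarer site at 20% or more, -0.60 and -0.33 without the untreated library, and -1.63 and -1.39 without the 0 min library. Pairs past 10 points numbered 21 more and 38 less distal with at least 50 reads, and from 377 to 393 more and 450 to 586 less distal without 1 unexposed library. The pair test called 0 throughout the settings tried, chosen before or after seeing the data, except that the legacy fit on 8 libraries called 1 pair more distal at 60 min. No paired analysis was possible because each exposure has 1 cytosol library, except between fractions: with a replicate block by condition, added after seeing the data, that comparison gave 1763 higher and 873 lower genes at 30 min and 1787 and 831 at 60 min.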

Other observations

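The genes that rose at both times had a low ratio of polysome to monosome reads in the cytosol of unexposed cells. In the proliferating cytosol gradient libraries the median log2 ratio was -1.41 over the 1210 genes, against 0.0052 over all genes tested. Of the 1210 genes, 1079 had a membrane ratio of at least 2. Genes with such a membrane ratio that did not rise were not compared. Whether the low polysome ratio is particular to the genes that rose was not tested. Vcl, the adhesion protein vinculin, has no signal sequence but rose with the secretory genes, from 8.74 and 6.13 CPM to 86.5 and 72.8 CPM (log2 change 3.55 ± 0.38 at 30 min), and had a membrane ratio of 3.31. Slc2a1, the glucose transporter, went from 9.09 and 6.86 CPM to 95.9 and 83.4 CPM.

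Txnip, a regulator of glucose uptake, stood at 0.35, 0, 2.64 and 8.11 CPM in the untreated, 0, 30 and 60 min libraries and rose at both times.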
